A study of Mus musculus with 24 samples.

Results

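A set of 7 erythroid genes was followed in mouse brown adipose tissue: the alpha globins Hba-a1 and Hba-a2, the beta globins Hbb-bs and Hbb-bt, the heme synthesis enzymes Alas2 and Fech, and the red cell anion exchanger Slc4a1. They were chosen by symbol, and all 7 had a row among the 23017 genes of the table. All 7 passed the filter on low values that left 17263 genes for testing. PolyA RNA was sequenced from 24 samples of C57BL/6J mice, 6 in each of 4 groups. The series describes the animals as obese and insulin resistant; their age, sex and diet, the doses and the duration are not stated in the labels used here. Vehicle mice received vehicle alone. LAGIPRA mice received a long-acting agonist of the receptor for GIP, an incretin hormone of the gut. TZP mice received tirzepatide, a single peptide that acts on both the GIP and the GLP-1 receptor. PairFedVehicle mice received vehicle and a restricted ration; the labels do not say which group set the ration. Nothing in the labels ties samples to animals, so the spread behind each p-value is that between samples, which may be technical.

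Red blood cells are packed with hemoglobin, a tetramer of alpha and beta globin chains that each hold 1 heme. Heme synthesis starts in the mitochondrion with 5-aminolevulinate synthase, made from Alas2 in erythroid cells and from Alas1 in other cells, and ends there with ferrochelatase, made from Fech, which inserts iron into protoporphyrin. Slc4a1 encodes band 3, which exchanges chloride for bicarbonate across the red cell membrane. Adipocytes carry heme in their respiratory chain and make it with Alas1 and Fech. Young red cells, the reticulocytes, still hold globin mRNA, and blood left in the vessels of a tissue brings it into a tissue library. In such bulk samples, fewer cells of a type and less RNA per cell cannot be told apart.

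The sequences upstream of the members that varied together are shown for comparison. Each is the 250 bases before the RefSeq start of the gene (GRCm38.p6), 5′ to 3′ along the gene, and capitals mark short promoter motifs found on either strand. They are the TATA box (letters TATAA), the CCAAT box (letters CCAAT), the CACCC box (letters CACCC) and a GATA motif in its forms AGATAA or else TGATAA.
Hba-a1 (chr11:32283422-32283671, plus strand): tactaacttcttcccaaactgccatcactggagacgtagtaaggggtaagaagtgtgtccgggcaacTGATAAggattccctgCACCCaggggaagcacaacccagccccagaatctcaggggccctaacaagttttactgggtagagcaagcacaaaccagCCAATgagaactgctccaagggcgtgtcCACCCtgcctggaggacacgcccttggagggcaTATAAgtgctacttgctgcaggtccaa
Hbb-bs (chr7:103827929-103828178, minus strand): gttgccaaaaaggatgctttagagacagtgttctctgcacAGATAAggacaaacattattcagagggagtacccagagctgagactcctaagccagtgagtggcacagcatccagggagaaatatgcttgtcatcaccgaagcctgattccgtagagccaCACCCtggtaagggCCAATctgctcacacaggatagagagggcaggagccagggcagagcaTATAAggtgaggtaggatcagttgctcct
Hbb-bt (chr7:103813924-103814173, minus strand): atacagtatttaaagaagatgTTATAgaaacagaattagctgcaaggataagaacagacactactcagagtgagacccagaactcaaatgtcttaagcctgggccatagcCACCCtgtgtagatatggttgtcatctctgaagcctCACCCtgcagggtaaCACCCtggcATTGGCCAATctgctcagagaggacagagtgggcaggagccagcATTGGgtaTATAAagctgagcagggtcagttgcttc
Alas2 (chrX:150547167-150547416, plus strand): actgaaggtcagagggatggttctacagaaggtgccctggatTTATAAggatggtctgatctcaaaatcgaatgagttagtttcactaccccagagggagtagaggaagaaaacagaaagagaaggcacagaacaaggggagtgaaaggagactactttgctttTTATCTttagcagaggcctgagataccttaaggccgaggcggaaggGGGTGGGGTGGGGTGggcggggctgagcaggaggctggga

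The Hba-a2 window shared an unbroken run of 247 bases with that of Hba-a1, whereas the longest run shared by Hbb-bs and Hbb-bt was 14 bases. All 4 globin windows held a TATA box, a CCAAT box and a CACCC box, which occurred together in 3.28% of the 32851 RefSeq windows of that length. The TATA box nearest the gene began at -27 in Hba-a1, -30 in Hba-a2, -29 in Hbb-bs and -28 in Hbb-bt, counted back from the start. Singly, the TATA box letters were in 22.8% of all windows, those of the CCAAT box in 33.8% and those of the CACCC box in 52.0%. TGATAA, in 7.94% of windows, was in both alpha globin windows, and AGATAA, in 9.99%, was in those of Hbb-bs and Alas2. In Hbb-bt, CCAAT boxes on opposite strands lay side by side, and in Alas2 the TATA box letters on both strands overlapped each other. The matches are a description of letters, not of bound sites. RefSeq windows were matched for 5 members; Slc4a1 and Fech had no entry.

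How far reads of the paired globins can be told apart bears on every globin value. In the GENCODE transcripts, the coding sequences of Hba-a1 and Hba-a2 had 429 bases each and differed at 1 base, C381T, written as the Hba-a1 base, its position from the A of the start codon, and the Hba-a2 base. Those of Hbb-bs and Hbb-bt had 444 bases and also differed at 1 base, C417T, written with the Hbb-bs base before the position. The stretches around these bases are shown with the differing base in capitals.
Hba-a1: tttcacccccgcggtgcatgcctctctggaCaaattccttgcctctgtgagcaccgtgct
Hba-a2: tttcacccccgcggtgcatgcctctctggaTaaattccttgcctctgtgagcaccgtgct
Hbb-bs: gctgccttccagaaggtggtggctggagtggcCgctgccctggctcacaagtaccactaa
Hbb-bt: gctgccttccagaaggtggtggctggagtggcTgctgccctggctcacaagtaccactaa

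Of the 50-base windows of the Hba-a1 transcript, 67.5% also occurred in Hba-a2, and 86.9% of those of Hba-a2 occurred in Hba-a1. For Hbb-bs and Hbb-bt the shares were 65.8% and 58.3%. The labels do not state how reads that fit both copies were counted. The 4 globin values are therefore uncertain as values of single genes, and the pairs do not count as independent.

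The deposited values were read as log2 values and were nearly identical in distribution between libraries, as after quantile normalization. Read totals were not analysed here; the precision therefore rests on the replicates, and the median SE of a log2 change over all tested genes was 0.15. The brown adipocyte gene Ucp1 was at 14.7 or above in all 24 libraries. Skeletal muscle markers were close to absent in Vehicle 1 (mean of 10 markers 0.80), TZP 3 (0.88) and PairFedVehicle 5 (0.56), and ran from 4.77 to 11.03 in the remaining libraries. The slope on transcript length was taken of each gene's deviation from its mean over the 24 libraries, so it is relative to the average library. In TZP libraries 3 to 6 it was -0.0598 to -0.128 log2 per doubling, against -0.00887 to 0.0531 in the rest. As a rough sign of depth, the commonest low value of each library (called here its 1-read level) ran from 0.89 to 1.35 in Vehicle, 1.12 to 1.68 in LAGIPRA, 0.962 to 1.53 in TZP and 1.02 to 1.26 in PairFedVehicle.

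Globin, Alas2 and Slc4a1 mRNA was lower in TZP than in Vehicle and highest on average in LAGIPRA. In TZP, 6 of the 7 members were lower than in Vehicle, by 2.004-fold for Hba-a1 to 6.75-fold for Slc4a1, and Fech was not among them. The size for Slc4a1 is uncertain, as some of its TZP values lay at or near the lowest level. Against LAGIPRA, 4 members were lower in TZP. Fech alone was higher in LAGIPRA, by 1.19-fold against Vehicle and 1.22-fold against PairFedVehicle. No member passed between PairFedVehicle and Vehicle or between TZP and PairFedVehicle. For the 6 members other than Fech the group means ran upward from TZP through PairFedVehicle and Vehicle to LAGIPRA, and no pair of neighbours in that order passed the adjusted threshold for any of them, although 5 of the 6 had an unadjusted p under 0.05 between TZP and PairFedVehicle. For Fech the order was PairFedVehicle, Vehicle, TZP and LAGIPRA, and TZP and LAGIPRA differed by -0.23 (adjusted p = 0.102). All 6 comparisons use limma over the 17263 tested genes with Benjamini-Hochberg adjustment and a threshold of 0.05, two-sided, and comparisons that share a group share its samples.

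**Figure D1:**
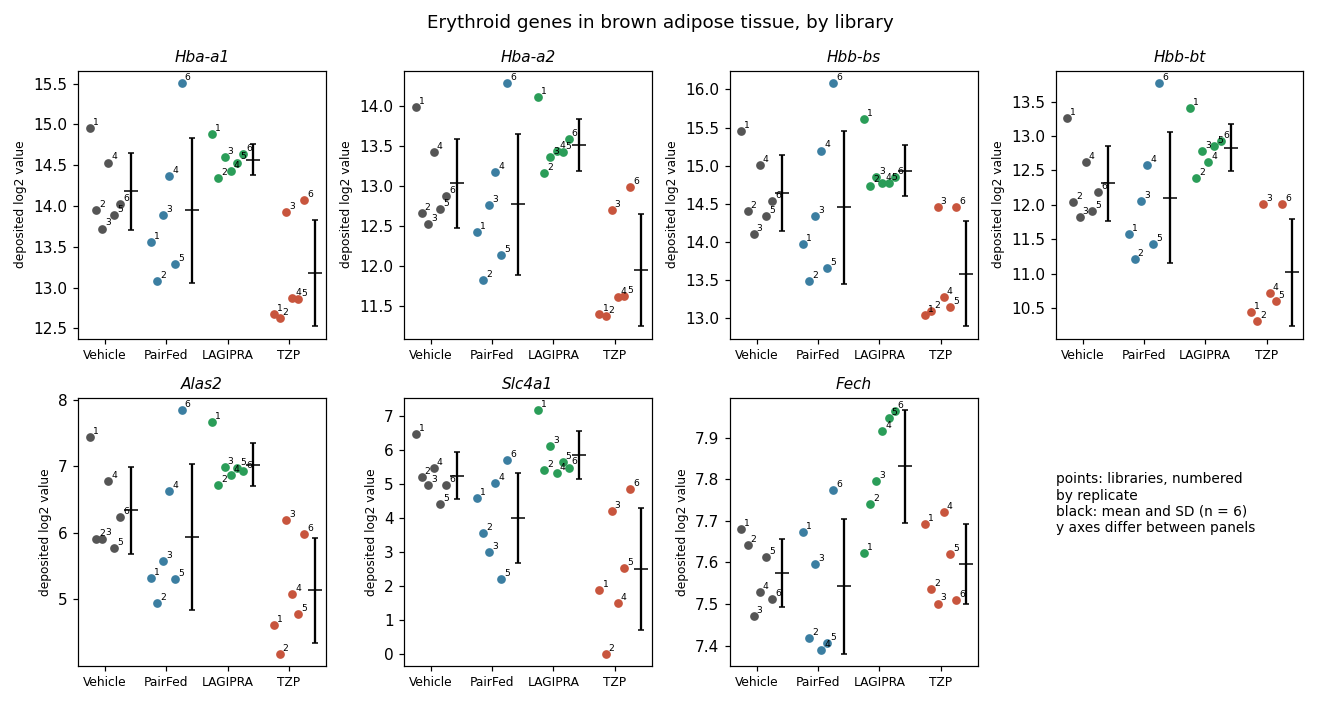
Deposited log2 values (y axis, its range differing between panels) of the 7 members in the 4 groups (x axis), with 1 point per library numbered by replicate and the mean and SD of 6 in black. In the 6 panels other than Fech, TZP libraries 1, 2, 4 and 5 lie below every Vehicle library, and PairFedVehicle spreads from below to above the Vehicle mean.

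Of the 2 adult beta globin genes, Hbb-bt was at 10.44, 10.31, 12.01, 10.72, 10.60 and 12.02 in TZP libraries 1 to 6 (log2 values, in order). In Vehicle it ran from 11.8 to 13.3 (median 12.1), in LAGIPRA from 12.4 to 13.4 (median 12.8) and in PairFedVehicle from 11.2 to 13.8 (median 11.8). TZP libraries 3 and 6 thus lay inside the Vehicle range and the other 4 below it, while all 6 lay below the lowest LAGIPRA library. Its mean was 11.02 ± 0.78 (SD, n = 6) in TZP against 12.3 ± 0.54 in Vehicle, a log2 change of -1.30 (SE 0.377, adjusted p = 0.0174), or 2.45-fold lower.

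Hbb-bs, the other adult beta globin gene, was low in the same libraries. It was at 13.03, 13.08, 14.46, 13.28, 13.15 and 14.46 in TZP, and it ran from 14.1 to 15.5 (median 14.5) in Vehicle, 14.7 to 15.6 (median 14.8) in LAGIPRA and 13.5 to 16.1 (median 14.2) in PairFedVehicle. TZP and Vehicle overlapped through TZP 3 and 6, which were both at 14.461; TZP and LAGIPRA did not overlap. TZP was 2.09-fold lower than Vehicle (log2 change -1.06, SE 0.368, adjusted p = 0.0412). After quantile normalization a value depends on rank alone, so log2 changes of genes this abundant are partly steps between ranks.

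The distance between the 2 beta globins within a library was not constant. Hbb-bs exceeded Hbb-bt by 2.56 ± 0.12 (log2 difference, SD, n = 6) in TZP, 2.33 ± 0.084 in Vehicle, 2.35 ± 0.14 in PairFedVehicle and 2.10 ± 0.17 in LAGIPRA. The 6 TZP values, 2.44 to 2.77, lay above all Vehicle values (2.19 to 2.43) and all LAGIPRA values (1.92 to 2.35), and overlapped those of PairFedVehicle (2.22 to 2.62). Their deposited values therefore did not change in equal measure. The difference was not tested, and the rank steps and shared reads described above apply to both genes.

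Both alpha globins were lowest in the same TZP libraries. Hba-a1 was at 12.68, 12.63, 13.93, 12.88, 12.86 and 14.08 in TZP, against 13.7 to 15.0 (median 14.0) in Vehicle, 14.3 to 14.9 (median 14.6) in LAGIPRA and 13.1 to 15.5 (median 13.7) in PairFedVehicle. Hba-a2 was at 11.40, 11.37, 12.69, 11.62, 11.63 and 12.99 in TZP, against 12.5 to 14.0 (median 12.8), 13.2 to 14.1 (median 13.4) and 11.8 to 14.3 (median 12.6) in those groups in the same order. For both genes TZP 3 and 6 fell within the Vehicle range, and no TZP library reached the LAGIPRA range. Against Vehicle, Hba-a1 fell by 1.003 on the log2 scale (SE 0.328, adjusted p = 0.0314) and Hba-a2 fell by 1.08 (SE 0.352, adjusted p = 0.0307). Hba-a1 exceeded Hba-a2 by a mean of 1.06 to 1.23 in the 4 groups, with SDs of 0.053 to 0.17.

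Alas2, the erythroid synthase of the first heme step, was also low in TZP libraries 1, 2, 4 and 5. It was at 4.62, 4.18, 6.19, 5.08, 4.78 and 5.99 in TZP libraries 1 to 6. It ran from 5.77 to 7.44 (median 6.07) in Vehicle, 6.73 to 7.67 (median 6.96) in LAGIPRA and 4.95 to 7.85 (median 5.45) in PairFedVehicle. Again TZP 3 and 6 overlapped Vehicle and the other 4 did not, and every TZP library was below every LAGIPRA library. The TZP mean was 2.30-fold below Vehicle (log2 change -1.201, SE 0.416, adjusted p = 0.0410). Between LAGIPRA and Vehicle the log2 difference was 0.69 with a 95% interval of -0.17 to 1.55.

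Slc4a1, the band 3 gene, had the widest spread of the members. Its values in TZP were 1.88, 0.0059, 4.22, 1.51, 2.54 and 4.87. Vehicle ran from 4.42 to 6.49 (median 5.10), LAGIPRA from 5.33 to 7.18 (median 5.58) and PairFedVehicle from 2.20 to 5.70 (median 4.07). Only TZP 6 reached the Vehicle range, and TZP 2 was at the zero level of the scale. TZP 4 was at its 1-read level of 1.505, and TZP 1 was little above its own of 1.454. The log2 change from Vehicle to TZP was -2.75 (SE 0.661, adjusted p = 0.00604), or 6.75-fold lower. Its size is uncertain because of these low values, and without TZP 2 it was -2.255 (limma, adjusted p = 0.0116). PairFedVehicle libraries 2, 3 and 5 were also below the Vehicle range, and the log2 difference from Vehicle was -1.24 (SE 0.661, adjusted p = 0.270).

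Fech, the last enzyme of heme synthesis, behaved differently. It was at 7.62, 7.74, 7.80, 7.91, 7.95 and 7.96 in LAGIPRA libraries 1 to 6, against 7.47 to 7.68 (median 7.57) in Vehicle, 7.39 to 7.77 (median 7.51) in PairFedVehicle and 7.50 to 7.72 (median 7.58) in TZP. LAGIPRA libraries 2 to 6 exceeded every Vehicle library, and LAGIPRA 1 lay inside that range. Fech rose by 0.26 on the log2 scale in LAGIPRA against Vehicle (SE 0.0738, adjusted p = 0.0268) and by 0.29 against PairFedVehicle (SE 0.0738, adjusted p = 0.0123). Its TZP minus Vehicle difference was 0.02, with a 95% interval of -0.13 to 0.17. LAGIPRA libraries 4 to 6, the highest in Fech, also had the largest 1-read levels of that group, 1.38 to 1.68 against 1.12 to 1.15 in libraries 1 to 3. With that level as a covariate the LAGIPRA minus Vehicle difference was 0.185 (adjusted p = 0.246) and the LAGIPRA minus PairFedVehicle difference was 0.244 (adjusted p = 0.0516), neither past the threshold. LAGIPRA minus Vehicle without LAGIPRA 4, 5 or 6 or Vehicle 3 or 6 in turn was 0.23 to 0.24 and no longer passed (adjusted p = 0.0598 to 0.0723).

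**Figure D2:**
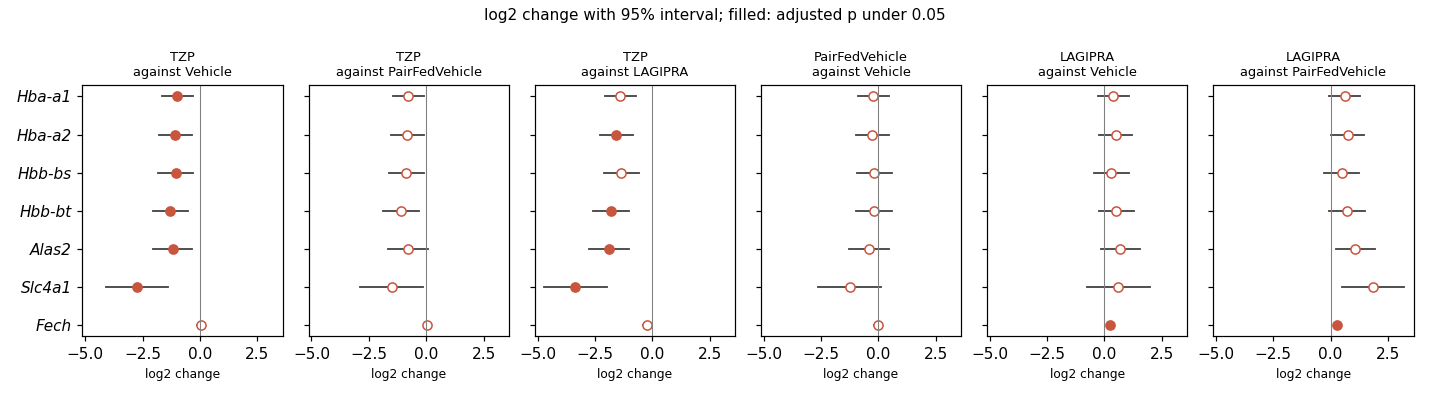
log2 change (x axis) of each member (y axis) in the 6 comparisons, with the 95% interval from limma as a line; filled points have adjusted p under 0.05. Filled points number 6 in TZP against Vehicle, 4 in TZP against LAGIPRA and 1, Fech, in each LAGIPRA comparison with a vehicle group.

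The count of 6 lower members in TZP against Vehicle stood beside 10.3% of all tested genes called lower in that comparison, and the median log2 change was -1.08 over the members and 0.04 over all tested genes. These members vary together across libraries, so they are not independent. The count was 2, Slc4a1 and Hbb-bt, without any one of TZP 1, 2, 4 or 5 or of Vehicle 1 or 4. It was 1, Slc4a1, with the length slope or the endothelial marker mean as a covariate, and 0 with the 1-read level as a covariate. The slope and the endothelial mean differ between TZP and Vehicle libraries, so calls can be lost for any gene in those fits. The share of all tested genes called in the covariate fits is not given here, so these counts are not a result about the members alone. With the length slope the log2 changes were larger in size, -1.40 to -1.82 for the globins and -1.69 for Alas2, and none of these 5 passed (adjusted p = 0.104 to 0.181). With the endothelial mean they were -1.09 to -1.48 and -1.34 (adjusted p = 0.0781 to 0.188). With the 1-read level the log2 changes were -0.76 to -0.9999 for the globins, -0.91 for Alas2 and -1.94 for Slc4a1 (adjusted p = 0.0606). Without TZP libraries 3 to 6, or without the 3 libraries low in muscle markers, the count was 4 in each case.

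In TZP against LAGIPRA the called members were Slc4a1 (log2 change -3.36, SE 0.661, adjusted p = 0.0424), Hbb-bt (-1.81, SE 0.377, adjusted p = 0.0468), Alas2 (-1.89, SE 0.416, adjusted p = 0.0468) and Hba-a2 (-1.56, SE 0.352, adjusted p = 0.0487). Hba-a1 (-1.39, adjusted p = 0.0531) and Hbb-bs (-1.36, adjusted p = 0.0660) missed the threshold narrowly. Few genes differed between the 2 treatments: 0.348% of those tested were called lower in TZP, 60 in number. The 6 members other than Fech were lower in all 6 TZP libraries than in any LAGIPRA library, a separation shown by 0.458% of all tested genes, and the members' median log2 change was -1.56 against 0.01 over all tested genes. These calls lie close to the threshold. The count of called members was 0 without TZP 4, 5 or 6 in turn and without each LAGIPRA library in turn, 6 with array quality weights and 5 with the 1-read level as a covariate, and the change of Hbb-bt over 28 alternatives ran from -2.45 to -1.67 with adjusted p from 0.00512 to 0.337.

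TZP against PairFedVehicle gave lower values without a call. The log2 difference was -1.09 for Hbb-bt (SE 0.377, adjusted p = 0.0502), -0.77 for Hba-a1 (adjusted p = 0.111), -0.82 for Hba-a2 (adjusted p = 0.116), -0.88 for Hbb-bs (adjusted p = 0.107) and -1.51 for Slc4a1 (adjusted p = 0.124). Those 5 had an unadjusted limma p under 0.05, none passed after adjustment, and 8.02% of all tested genes were called lower. PairFedVehicle overlapped TZP for every member, with PairFedVehicle 6 the highest of all 24 libraries for the 4 globins and Alas2. Without TZP 6 the count of lower members was 2, against 0 with all libraries. It was 5 without the 3 libraries low in muscle markers, a set chosen after seeing the data. That set holds TZP 3, among the highest of its group (mean deviation of the 6 members other than Fech, -0.046). It also holds PairFedVehicle 5, the lowest of its group on that mean (-0.96), and TZP 6 (0.10) was the highest TZP library. These removals widen the difference in any case and are not separate evidence of it. Without PairFedVehicle 6 the differences were smaller in size: -0.46 for Hba-a1, -0.52 for Hba-a2, -0.55 for Hbb-bs, -0.76 for Hbb-bt (adjusted p = 0.126) and -0.42 for Alas2.

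Between PairFedVehicle and Vehicle, limma called 0 members, and 0 had an unadjusted p under 0.05; 3.66% of all tested genes were called lower. Globin differences lay between -0.18 and -0.26, and the interval for Hbb-bt, -0.99 to 0.57, spans changes in either direction. The span within PairFedVehicle was wide: the SD of Hbb-bt was 0.95 there against 0.34 in LAGIPRA. LAGIPRA against PairFedVehicle gave Fech as the 1 higher member, where 7.3% of all tested genes were higher. Without PairFedVehicle 6, the highest library of its group for every member, 6 members were higher in LAGIPRA. They included Alas2 (log2 change 1.47, limma, adjusted p = 0.00888). Leaving out the highest library lowers the mean of its group in any case, so this count is not separate evidence of a difference. The share of all tested genes called in that fit is not given here. LAGIPRA against Vehicle likewise had Fech alone, beside 8.7% of all tested genes called higher.

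**Figure D3:**
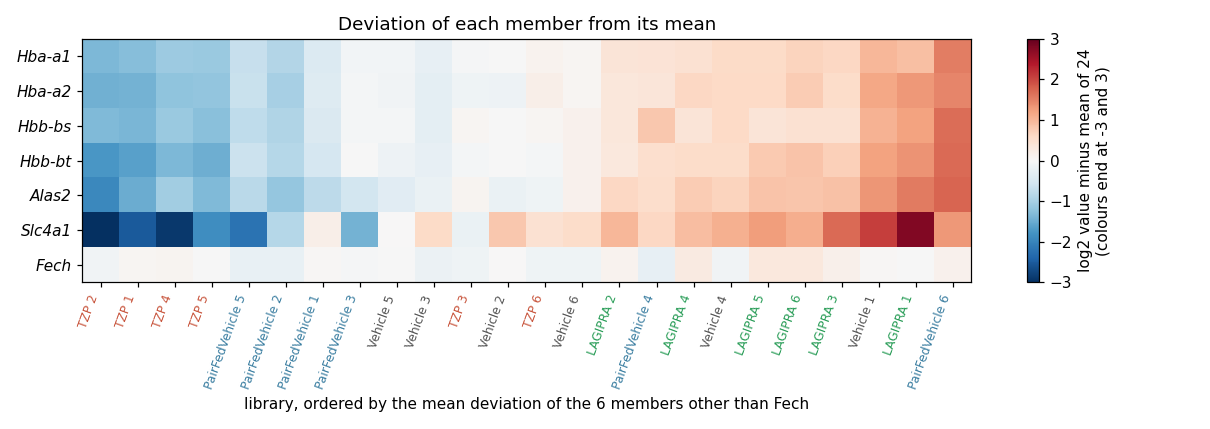
Deviation of each member (rows) from its mean over 24 libraries, as log2 values in colour that end at -3 and 3, with libraries (columns) ordered by the mean deviation of the 6 members other than Fech and label colours marking groups. The order runs from TZP 2, 1, 4 and 5 to PairFedVehicle 6, and the Fech row stays close to 0 throughout.

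Across the 24 libraries the 6 members other than Fech varied together. Over their 15 pairs, Pearson's r was 0.872 to 0.993 and Spearman's rho 0.912 to 0.987, each with a permutation p of 1e-05, the smallest that the resampling can give (adjusted over 21 pairs, 1.4e-05). Leaving out the 2 libraries farthest from the median gave r of 0.894 to 0.993. Deviations from the group means, which hold no difference between groups, correlated at 0.804 to 0.990 (largest adjusted permutation p = 8.4e-05). The 6 pairs with Fech gave r of 0.27 to 0.408 (smallest adjusted p = 0.0643), and -0.0249 to 0.183 for the deviations. Spearman's rho of these pairs was 0.277 to 0.441. Its adjusted permutation p was under 0.05 with Slc4a1 (0.0432), Hbb-bt (0.0453) and Alas2 (0.0482), but not with Hba-a1, Hba-a2 or Hbb-bs. Within groups, r of Fech with Hbb-bt was 0.501 in Vehicle, 0.576 in PairFedVehicle, -0.354 in LAGIPRA and -0.645 in TZP. Alas2 followed Hbb-bt at r = 0.979 and Slc4a1 did so at 0.901, while Fech did so at 0.358. The mean deviation of the 6 members ran from -2.03 in TZP 2 to 1.57 in PairFedVehicle 6, and that of TZP 3 (-0.046) and TZP 6 (0.10) lay amid the Vehicle libraries.

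**Figure D4:**
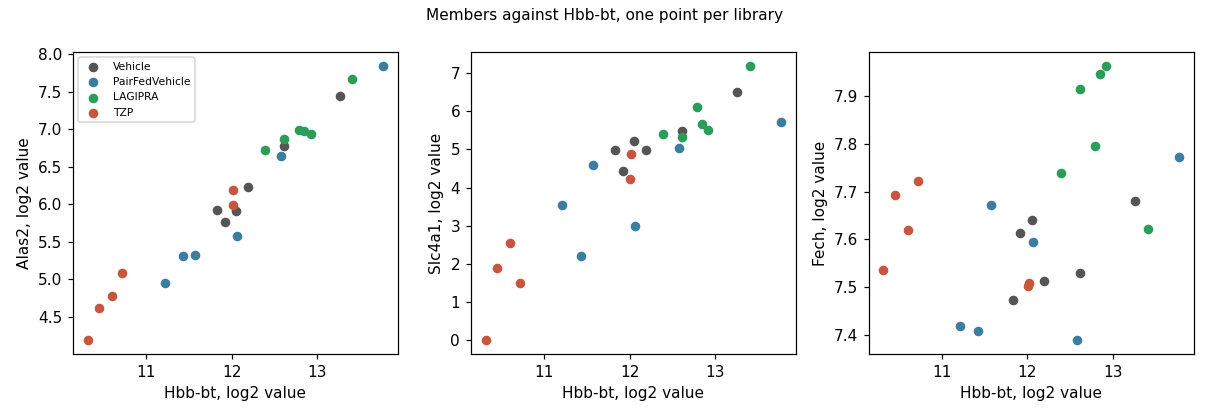
Values of Alas2, Slc4a1 and Fech (y axes, deposited log2) against Hbb-bt (x axis, deposited log2), with 1 point per library coloured by group. Alas2 and Slc4a1 increase with Hbb-bt over all groups (r = 0.979 and 0.901), and in the Fech panel (r = 0.358) LAGIPRA libraries 2 to 6 lie above all Vehicle points.

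Among the 5 tested genes that tracked Hbb-bt most closely, members and predicted models aside, were Hbb-b1 (r = 0.987 over 24 libraries), Hbb-b2 (0.895) and Isg20 (0.802). Hbb-b1 and Hbb-b2 are beta globins of another haplotype and may share reads with the members, so their correlations do not count as those of separate genes. These 3 were also among the 5 closest to Alas2, and Hbb-b1 (0.892), Hbb-b2 (0.816) and Fam46c (0.728) were among the 5 closest to Slc4a1. The 5 closest to Fech included Immt (0.847), which organizes the inner mitochondrial membrane, Lypla1 (0.841), Polr2m (0.837) and Actr1b (0.823).

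The value deposited under Hbb-b1 was lower in TZP than in Vehicle, with a log2 change of -1.02 (SE 0.344, adjusted p = 0.0368). The value under Hbb-b2 did not pass (-0.84, adjusted p = 0.143). Reads of Hbb-bs and Hbb-bt may make up the values under both names. The lower value under Hbb-b1 is therefore not a result for a further gene.

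Of the red cell membrane genes reported here, 6 besides Slc4a1 were tested. In TZP against Vehicle limma called 0 of them lower (2 were lower at an unadjusted p under 0.05) and 1 higher, Dmtn (log2 change 0.38, adjusted p = 0.0487), which encodes a protein that bundles actin. LAGIPRA exceeded PairFedVehicle in 3 of them: Epb42 (1.26), Dmtn (0.49) and Gypc (0.47). Of 8 tested genes of late red cell enzymes and organelle clearance, 1 passed in TZP against Vehicle: Car2, a carbonic anhydrase, rose (0.57, adjusted p = 0.00480). Among 11 genes of erythroid iron and heme transport, 3 fell in that comparison, including Slc25a37, the mitochondrial iron importer mitoferrin-1 (-0.50, adjusted p = 0.0253), and 2 rose. Over all tested genes, 10.3% were called lower and 11.7% higher in TZP against Vehicle. In LAGIPRA against PairFedVehicle 7.3% were called higher. Tfrc, the transferrin receptor of growing cells, had a TZP minus Vehicle difference of -0.54 (adjusted p = 0.118).

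Regulators of red cell precursors were at low levels. Gata1, the leading erythroid transcription factor, averaged 0.19 to 0.84 in the 4 groups and Klf1 1.03 to 1.91, and both were below the filter for testing. Epor, the erythropoietin receptor, averaged 3.71 to 4.12. Of the 6 regulators tested, limma called 0 in TZP against Vehicle, and 1 was higher in LAGIPRA than in Vehicle, Zfpm1 (0.38, adjusted p = 0.0274). Between LAGIPRA and Vehicle 8.7% of all tested genes were called higher. Over all 24 libraries Gata1 reached at most 2.61 and Klf1 at most 3.05.

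Other enzymes of heme synthesis did not go the way of Alas2. Besides the 2 members, 6 genes of the pathway are reported here, all tested. In TZP against Vehicle, 3 of the 6 rose: Alad (0.45), Uros (0.40) and Urod (0.27), with adjusted p from 0.00585 to 0.00673, and none of the 6 fell, also at an unadjusted limma p under 0.05. Over all tested genes 11.7% were called higher. In LAGIPRA against Vehicle 4 of the 6 were higher, those 3 and Ppox (0.25, adjusted p = 0.0371), beside 8.7% of all tested genes. Alas2 alone of these 8 enzymes fell in TZP against Vehicle, and Fech and Alas1 did not pass there.

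**Figure D5:**
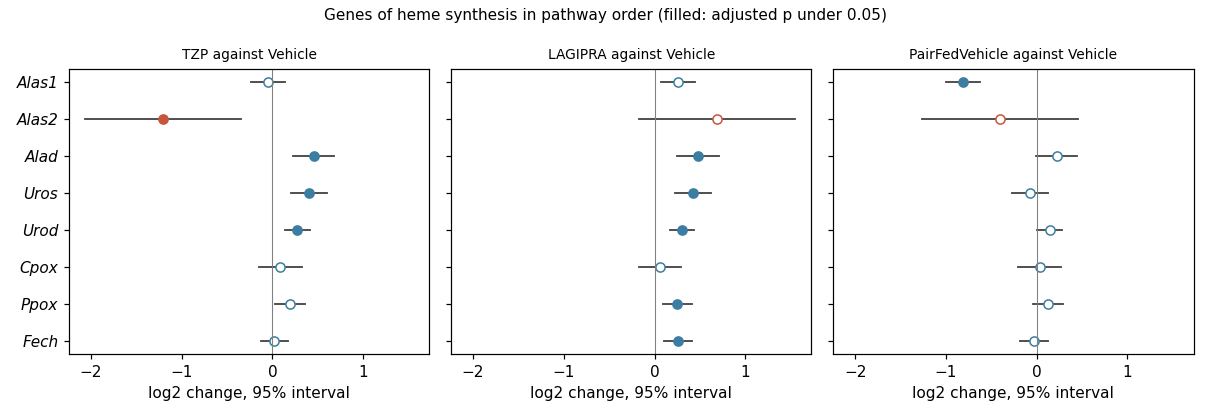
log2 change (x axis) with its 95% interval from limma for 8 genes of heme synthesis (y axis, in pathway order) in the 3 comparisons with Vehicle; filled points have adjusted p under 0.05 and Alas2 is in red. Alas2 is the 1 filled point left of 0 in TZP, where Alad, Uros and Urod are filled on the right, and Alas1 is the 1 filled point in PairFedVehicle.

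Alas1, the synthase of cells outside the red lineage, was lowest in the pair-fed group. It was at 9.85 ± 0.17 (SD, n = 6) in PairFedVehicle, 10.7 ± 0.15 in Vehicle, 10.9 ± 0.20 in LAGIPRA and 10.6 ± 0.10 in TZP. It was lower in PairFedVehicle than in Vehicle (log2 change -0.81, SE 0.0908, adjusted p = 5.7e-06), and higher than in PairFedVehicle in both TZP (0.76, adjusted p = 9.1e-06) and LAGIPRA (1.07, adjusted p = 1.2e-07). Alas1 in TZP minus Vehicle was -0.05, where Alas2 fell by 1.201. TZP exceeded PairFedVehicle in 2 of the 6 genes, Alas1 and Uros (0.47), beside 8.39% of all tested genes called higher.

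Markers of other blood and tissue cells were set beside the members. In TZP against Vehicle, 1 of 5 platelet markers fell, Gp1bb (-0.66, adjusted p = 0.0465), as did 0 of 5 neutrophil, 0 of 3 lymphocyte and 1 of 11 macrophage markers, Mrc1 (-1.08, adjusted p = 0.00396). At an unadjusted limma p under 0.05, 6 of the 11 macrophage markers were lower, and the median log2 change of the 11 was -0.47. By that measure 2 platelet, 0 neutrophil and 0 lymphocyte markers were lower. Of 11 endothelial markers 6 fell, led by Cldn5 (-1.02, adjusted p = 2.0e-04), beside 10.3% of all tested genes called lower. Their mean was 6.93 to 7.44 in TZP libraries and 7.44 to 7.72 in Vehicle libraries, with none at 0. Between PairFedVehicle and Vehicle, 2 of the 11 were higher and 1 was lower. Within TZP, the libraries lowest in endothelial markers were 6 (6.93) and 5 (6.98). Of these, TZP 6 was among the highest of its group in globins (Hbb-bt 12.02) and TZP 5 among the low ones (10.60). TZP 6 and 5 also had the lowest length slopes, -0.128 and -0.0867, and a link between slope and endothelial markers was not tested. Over all 24 libraries, Hbb-bt and the endothelial mean had r = 0.45 (permutation p = 0.0256, adjusted over 8 properties 0.205). Spearman's rho was 0.395 (permutation p = 0.0559, adjusted 0.447). Without the 2 farthest libraries r was 0.47, and for deviations from group means it was -0.0935. None of the 8 properties compared with Hbb-bt passed after adjustment. For deviations from group means the closest was the lymphocyte mean of 3 markers (r = 0.528, permutation p = 0.0114, adjusted 0.091). The neutrophil (0.455, adjusted 0.17) and platelet means (0.406, adjusted 0.17) followed. Over all 24 libraries the lymphocyte mean had r = 0.157 and Spearman's rho 0.0222, and r = 0.0401 without the 2 farthest libraries. Within LAGIPRA its r was -0.372. The part of these cell types in the result was not tested. In LAGIPRA against Vehicle 5 of 11 macrophage markers fell, and Pf4, a platelet chemokine, fell by 0.9999 on the log2 scale (adjusted p = 0.0213), while globins were not called.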

How the data were processed

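RNA was taken from brown adipose tissue with TRIzol and a lipid tissue kit and selected for polyA, per the labels' protocols. The submitters' processing notes name cutadapt 1.9.1 and GSNAP; build, annotation, counter and strand are not stated there or in the labels. The authors deposited 1 table of 23017 genes, read here as log2 values; this scale and quantile normalization were inferred from the values (-0.50 to 22.3, 25% quantile 2.88 to 2.95). The 25% of genes with the lowest mean (below 2.86) were left out. limma 3.58.1 (R 4.3.3) fitted 1 mean per group to all 24 samples with a mean-variance trend and was tested on simulated data. Relations used permutation tests with 100000 resamples. Length slopes used GENCODE M21 lengths, known for 88.6% of tested genes.

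The members and gene lists were chosen with earlier results of these data known. All members are named; of each list, up to 4 called genes per comparison with the smallest p, called heme synthesis genes and some defining markers could be named, and the 5 genes most like Hbb-bt, Alas2, Slc4a1 and Fech. Some genes met by the rule are not reported here, and list counts leave them out. Other filters, normalizations, variance models, covariates, thresholds and leaving out libraries were tried. Figures were drawn with matplotlib 3.10.9.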

Additional observations from a re-analysis of the deposited data

Results flagged for a closer look

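Of 28 sets of 6 values (7 members in 4 groups), 2 held a library far from the others by Dixon's test, where chance gives about 1 in 20. Both were LAGIPRA library 1, the highest of its group: Hbb-bs was at 15.618, with a gap to the next library of 0.875 of the group's range, and Alas2 was at 7.6703, with a gap of 0.724 of the range; the limit for 6 values is 0.625.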

How the results depend on the processing

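The counts of called members were 6 in TZP against Vehicle, 4 in TZP against LAGIPRA, 1 in LAGIPRA against Vehicle and against PairFedVehicle, and 0 in the others. In TZP against Vehicle the count was 0 with the 1-read level as a covariate, and 1 with the length slope, with the endothelial mean or at a threshold of 0.01; leaving out 1 library gave 2 to 6. In TZP against LAGIPRA it was 0 with no filter, no trend, only the 2 groups, the length slope, the endothelial mean or a threshold of 0.01, 2 with the replicate block, 1 without TZP libraries 3 to 6, 5 with the 1-read level and 6 with array weights; leaving out 1 library gave 0 to 5. In LAGIPRA against Vehicle it was 0 with the 1-read level, with the muscle mean or at 0.01, and 0 to 1 without 1 library. In TZP against PairFedVehicle it was 1 with a filter at the median, correction for transcript length, a threshold of 0.1 or the replicate block, 5 without the 3 libraries low in muscle, 2 without TZP libraries 3 to 6, and 0 to 2 without 1 library. In LAGIPRA against PairFedVehicle it was 3 with array weights or at 0.1, 2 with only the 2 groups, 0 at 0.01, and 1 to 6 without 1 library; with the 1-read level the 1 member was Slc4a1 (adjusted p = 0.0223) in place of Fech. In PairFedVehicle against Vehicle it was 0 throughout. The cause was not tested, and the share of all tested genes called under each alternative is not given here. Leaving out TZP libraries 3 to 6 or the 3 libraries low in muscle was chosen after seeing the data. The filter at the median removed Slc4a1.

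No called change turned its direction. Fech in TZP against Vehicle was -0.042 with the 1-read level as a covariate and, without 1 library, -0.0028 (TZP 4) to 0.043. In PairFedVehicle against Vehicle, Hbb-bs without 1 library ran from -0.51 to 0.0098 (PairFedVehicle 2), and without the 3 libraries low in muscle the differences were 0.059 for Hba-a1, 0.055 for Hba-a2, 0.14 for Hbb-bs, 0.12 for Hbb-bt and 0.016 for Fech. The replicate numbers did not pair the samples: correlations of same-numbered libraries ran from -0.602 to 0.378. All 15 relations without Fech held in both alternatives. Unknown depth limits Slc4a1 most, which reaches the zero level.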
